A study of Arabidopsis thaliana with 10 samples.

Results

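The genes described here are those of the 2-step route from tryptophan to auxin: the aminotransferases TAA1 (AT1G70560) and TAR2 (AT4G24670), and the YUCCA flavin monooxygenases YUC1 (AT4G32540), YUC2 (AT4G13260), YUC3 (AT1G04610), YUC5 (AT5G43890), YUC6 (AT5G25620), YUC8 (AT4G28720) and YUC9 (AT1G04180). They were chosen by locus identifier, without regard to their values, and make up 9 of the 33322 loci counted. RNA came from whole 2-day-old seedlings of Arabidopsis thaliana, Columbia background. Per the labels, the seeds had 3 h of white light to start germination, then 15 min of far-red light, followed by 48 h of darkness at 21 °C. The 10 genotypes were WT, the single mutants pif1, pif3, pif4 and pif5, the triple mutants pif345 (pif3pif4pif5), pif145 (pif1pif4pif5), pif135 (pif1pif3pif5) and pif134 (pif1pif3pif4), and the quadruple mutant pifq (pif1pif3pif4pif5). Each genotype had 3 biological replicates, lettered A, B and C, and the labels used here give no allele names. By its label, each triple mutant keeps 1 of the 4 targeted PIF genes: PIF1 in pif345, PIF3 in pif145, PIF4 in pif135 and PIF5 in pif134.

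PIFs are basic helix-loop-helix transcription factors that keep dark-grown seedlings in their elongated form with a closed apical hook, and light-activated phytochromes bring about their removal. TAA1 and its relatives, the TAR enzymes, convert tryptophan to indole-3-pyruvate, and YUCCA enzymes convert that to indole-3-acetic acid, the main natural auxin. The YUCCA step is taken to be the rate-limiting one, and in Arabidopsis hypocotyls in warmth or shade PIF4 and PIF7 are known to bind and activate YUC8 among other YUCCA genes. Whether the same genes depend on PIFs in dark-grown seedlings is the question that these genotypes allow.

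The libraries held 18.97 to 70.8 M counts (median 25.2 M), so that a single read stood for 0.0137 to 0.0574 CPM (read counts scaled to library size, here with TMM factors). In pifq, counts of PIF1, PIF3 and PIF5 were lower than in WT (edgeR's quasi-likelihood test), with log2 fold changes of -2.72, -5.26 and -3.92. PIF4 counts were higher (1.98), so they do not check the pif4 label. PIF1 was not low in the libraries labelled pif134 (58.1, 56.7 and 74.5 CPM, against 22.6, 20.7 and 31.8 in WT). It was also higher in pif135 A (12.4 CPM) and pif145 C (14.9) than in the other libraries of those genotypes (2.28 to 5.07). In the libraries labelled pif134, 2 of the 4 targeted PIF genes were called higher than in WT and 1 lower. All 4 were called lower in pifq than in those libraries. The libraries fell into 2 sets, the first of WT and the single mutants, the second of pifq and the triple mutants. Libraries with the same letter deviated together inside a set (19 of 20 genotype pairs) but mostly not between the sets (1 of 25, WT with the libraries labelled pif134). A triple mutant or pifq is therefore compared with WT across the sets, and there set and genotype cannot be told apart. The summed level of 9 root hair markers was 30.1 to 50.9 CPM in WT, 3.36 to 12.7 in pifq and 1.22 to 2.81 in the libraries labelled pif134. That of 5 root meristem markers was 38.9 to 45.3 in WT and 32.7 to 51.8 in pifq, and only EPF1, of all 44 markers of other cell types, had no read in any library. The sum of 10 seed storage genes was 2534 to 4669 CPM in WT, 155 to 767 in pifq (7 of 10 lower) and 57.2 to 77.6 in pif1. That of 7 stomatal lineage markers was 14.3 to 19.6 in WT and 27.0 to 38.5 in pifq (2 of 5 tested higher). Of all loci, 7.17% were called lower and 8.01% higher in pifq. The part of these markers in the differences between pifq and WT was not tested. In whole seedlings, fewer cells of a type and less RNA per cell cannot be told apart.

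Of the 9 genes, 5 passed the filter on low counts and could be tested: TAA1, TAR2, YUC3, YUC6 and YUC8. TAA1 was the highest in every library, at 10.15 to 44.6 CPM with a median of 22.4. YUC8 followed with a median level of 5.99 CPM, then YUC3 with 4.63, TAR2 with 3.44 and YUC6 with 1.73. Reads were captured at transcript 3′ ends, so these levels are not set by transcript length. YUC8 had the widest range, from 1.39 CPM in pif345 C to 13.4 in WT A, a ratio of 9.68, against ratios of 3.49 to 4.40 for the other 4 tested genes.

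The other 4 YUCCA genes were near the detection limit. YUC2 gave 124 reads over all 30 libraries, with 1 to 23 reads in 28 libraries and none in 2. YUC1 gave 30 reads, at most 4 in a library and none in 15 libraries. Its reads were unevenly spread over the letters, with 21 in the B libraries, 5 in A and 4 in C. YUC5 gave 18 reads, 7 of them in pif3 A, which is the deepest library, and none in 21 libraries. YUC9 gave 18 reads as well, at most 2 in a library and none in 16. In a library without a read, the limit that a count of 0 allows (3 counts) is 0.0412 to 0.172 CPM, counting error only. Differences in these 4 genes between genotypes were not detectable at this depth.

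**Figure D1:**
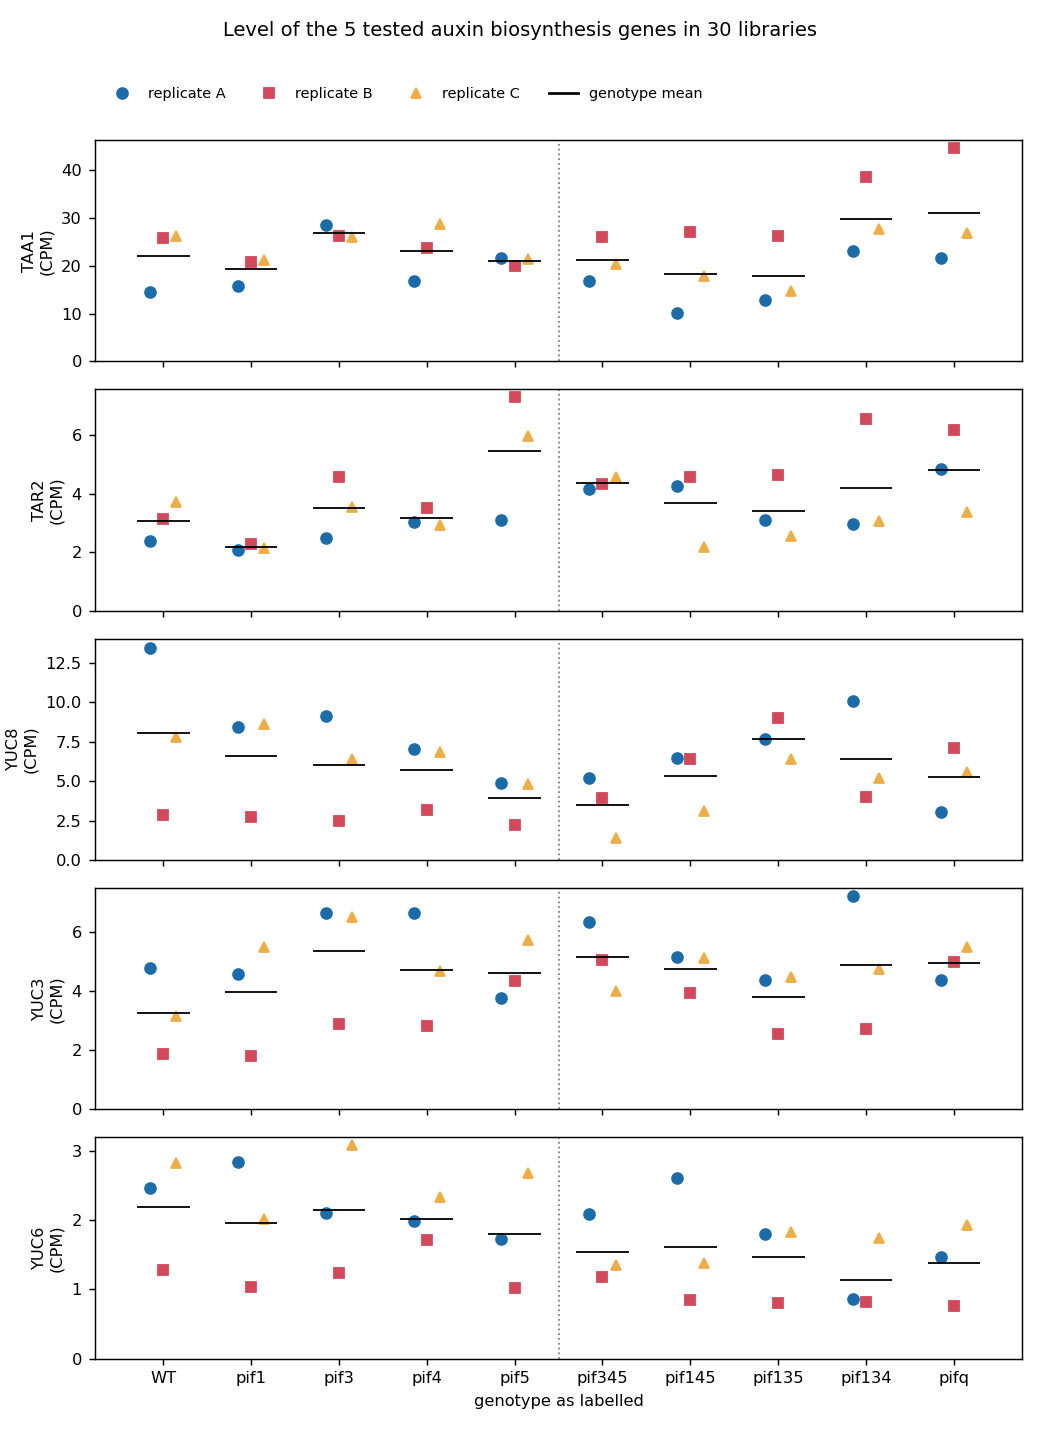
Level in CPM (linear axes from 0) of the 5 tested genes in each of the 30 libraries, with replicates A, B and C as separate symbols, a line at each genotype mean, and a dotted line between the sets of libraries. For TAR2, pif1 lies below the WT range and pif345 above it, while every other mutant overlaps WT in each panel, and the B libraries are the lowest for YUC6 in 10 of 10 genotypes.

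The promoters were read for the core letters that PIFs are known to bind, since the comparison turns on these factors. The windows were the 300 bases before each annotated gene start, taken from RefSeq (TAIR10.1), where all 9 genes matched by locus tag. On that build TAA1 lies at chr1:26604855-26607652, TAR2 at chr4:12727531-12731331, YUC8 at chr4:14192569-14194302, YUC3 at chr1:1279351-1281618 and YUC6 at chr5:8934941-8938768. The 4 genes of low count lie at chr4:15700829-15703000 (YUC1), chr4:7721487-7724070 (YUC2), chr5:17648576-17650375 (YUC5) and chr1:1104493-1106241 (YUC9). The G-box CACGTG, searched on both strands, was in 0 of the 9 windows, against 7.09% of the 27443 windows of protein-coding genes. The PBE-box CACATG, which has other letters so that no match counts for both, was in 3 of the 9 windows on either strand, against 13.1% of all windows. These were YUC8, the most abundant YUCCA gene here, and YUC2 and YUC9, of which few reads were found. The stretches around the match are given 5′ to 3′ on the gene's strand with the match in capitals (in YUC2 it lies on the opposite strand), and a match is a description of the letters and not a binding site.
YUC8, chr4:14192476-14192561, plus strand: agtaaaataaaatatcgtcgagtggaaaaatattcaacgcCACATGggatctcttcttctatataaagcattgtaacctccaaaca
YUC2, chr4:7724071-7724127, minus strand: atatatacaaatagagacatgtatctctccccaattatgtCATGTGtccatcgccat
YUC9, chr1:1104388-1104473, plus strand: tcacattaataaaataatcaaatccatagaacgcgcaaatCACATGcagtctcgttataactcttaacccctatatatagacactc
The match begins 53 bases before the gene start in YUC8, 17 in YUC2 and 65 in YUC9. The other 6 genes, TAA1 and TAR2 among them, held neither motif in this window.

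None of the aminotransferase or YUCCA genes passed the test in any mutant when all 30 libraries were fitted without the replicate letter. With p-values adjusted by Benjamini-Hochberg over the 18680 loci that edgeR tested, 0 of the 5 tested genes had an adjusted p under 0.05 in any of the 9 comparisons with WT. Of these 45 tests, 2 had an unadjusted p under 0.05, and DESeq2 called 0 as well. Among all loci tested, the same rule called 3.76% in pif1, 0.112% in pif3, 0.0589% in pif4 and 0.128% in pif5. It called 3.9% in pif345, 12.1% in pif145, 12.6% in pif135, 16.9% in the libraries labelled pif134 and 15.2% in pifq. With 5 genes tested, a count of 0 does not stand apart from those shares.

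TAA1 in WT was 14.6, 25.8 and 26.2 CPM in replicates A, B and C, and in pifq 21.6, 44.6 and 26.9. The B library of pifq held the highest level of all 30, and the A library lay within the WT range. The log2 fold change in pifq was 0.48 ± 0.32 (SE), with a 95% interval from -0.18 to 1.14 and an adjusted p of 0.339. TAA1 was also high in the libraries labelled pif134 (23.2, 38.7 and 27.8 CPM). It was lowest on average in pif135 (18.0 ± 7.21, SD, n = 3) and pif145 (18.4 ± 8.46), and no neighbours in the order of the 10 means were farther apart than 0.642 of the larger of their SDs.

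TAR2 in WT was 2.38, 3.15 and 3.71 CPM. In pif5 it was 3.11, 7.31 and 5.97 CPM, and in pif1 2.097, 2.30 and 2.15. The pif1 libraries all lay below those of WT, those of pif345 (4.17, 4.35 and 4.59 CPM) all above, and pif5 overlapped WT in its A library alone. In the order of means, pif1 and WT were the only neighbours farther apart than the larger of their SDs (1.34 times). The log2 fold change was 0.82 ± 0.34 in pif5 (unadjusted p = 0.0237, adjusted p = 0.311) and -0.50 ± 0.35 in pif1 (adjusted p = 0.449). The same-letter pairing holds between WT and each single mutant, and with the letter as a block within each set TAR2 was just past the threshold in pif5 (0.79 ± 0.24, adjusted p = 0.04999, with 7.29% of all loci called). It was not past it with the replicate block over all libraries (adjusted p = 0.126) or with a block in a fit of only the genotypes compared (adjusted p = 0.121). pifq held 4.87, 6.18 and 3.38 CPM of TAR2, with a log2 fold change of 0.64 ± 0.35 and an adjusted p of 0.223.

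YUC8 in WT was 13.4, 2.89 and 7.82 CPM, so that its replicates differed more than the genotype means did. pif345, which keeps PIF1, held 5.18, 3.96 and 1.39 CPM, and pif5 held 4.88, 2.20 and 4.83, and both groups overlapped WT. The log2 fold changes were -1.19 ± 0.55 in pif345 (unadjusted p = 0.0390, adjusted p = 0.246) and -1.01 ± 0.54 in pif5 (adjusted p = 0.448). In pifq YUC8 was 3.05, 7.08 and 5.60 CPM, with a log2 fold change of -0.61 ± 0.54 and a 95% interval from -1.72 to 0.50. The highest mean among the mutants was that of pif135, which keeps PIF4, at 7.65, 9.01 and 6.39 CPM.

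YUC3 and YUC6, the other YUCCA genes with enough reads, lay on opposite sides of WT. YUC3 in WT was 4.80, 1.88 and 3.15 CPM and in pifq 4.38, 5.002 and 5.50, or 0.61 ± 0.41 on the log2 scale (adjusted p = 0.340). Its WT mean was the lowest of the 10 genotypes, at 3.28 ± 1.46 CPM. YUC6 in WT was 2.46, 1.28 and 2.83 CPM and in pifq 1.46, 0.755 and 1.93, which gave -0.65 ± 0.48 on the log2 scale (adjusted p = 0.386). Its lowest mean was in the libraries labelled pif134, 0.86, 0.82 and 1.74 CPM, or -0.93 ± 0.49 on the log2 scale (adjusted p = 0.206). These are the libraries whose letters pair with WT across the sets. With the replicate block over all libraries, which pairs these letters, the log2 fold change of YUC6 there was -0.91 ± 0.32 (adjusted p = 0.0367). With a block in a fit of only the genotypes compared the adjusted p was 0.0814. The block within each set pairs no letters across the sets. It gave a fall of 0.89 ± 0.32 (adjusted p = 0.0326, with 32.5% of all loci called). Here too the gap between neighbours in the order of means was below their larger SD, and every genotype overlapped WT.

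The sign of the fold change was the same in all 9 mutants for 3 genes: above WT for YUC3 (0.22 to 0.72), and below WT for YUC6 (-0.93 to -0.03) and YUC8 (-1.19 to -0.06). TAR2 was above WT in 8 of 9 and TAA1 in 4 of 9. All 9 comparisons share the 3 WT libraries, so they are not 9 separate observations. For YUC8 the sign rests on WT A: without that library YUC8 was above WT in 6 of 9 mutants. Without WT B, YUC3 was above WT in 7 of 9, and without WT C, YUC6 in 3 of 9. TAR2 was above WT in 6 of 9 without WT A, and TAA1 in 3 of 9 without WT A and in 6 of 9 without WT B or WT C. With total counts in place of TMM factors, YUC6 and YUC8 were each above WT in 1 of 9 and TAA1 in 6 of 9. With the replicate block over all libraries or the block within each set, YUC8 was above WT in 1 of 9 as well.

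**Figure D2:**
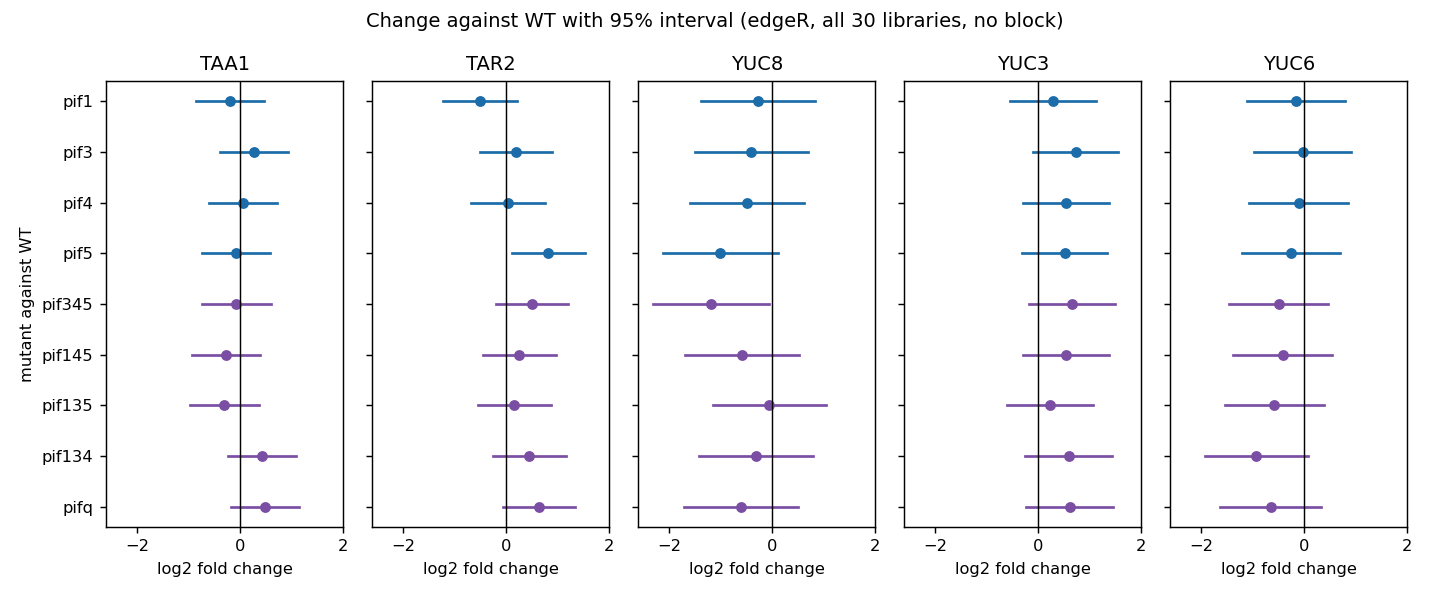
Log2 fold change of each mutant against WT with its 95% interval for the 5 tested genes, from the fit of all 30 libraries without a block; single mutants and multiple mutants differ in colour. The intervals for YUC8 reach from -2.31 to 1.04, and 0 lies inside 43 of the 45.

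By the labels, the comparison of pifq with each triple mutant asks what a single remaining PIF maintains. PIF1 was not low in the libraries labelled pif134, so the comparison with them may not isolate PIF5. It was also higher in pif135 A (12.4 CPM) and pif145 C (14.9) than in the other libraries of those genotypes. The comparisons with pif135 and pif145 may thus not isolate PIF4 and PIF3, and the part of PIF1 in them was not tested. Without a block, 0 of the 5 genes passed edgeR's test in any of these 4 comparisons (2 of 20 tests had an unadjusted p under 0.05, and DESeq2 called 0), where 2.75% of all loci were called against pif345, 0.551% against pif145, 0.696% against pif135 and 1.35% against the libraries labelled pif134. Both low values belonged to TAA1. It was 12.9, 26.2 and 14.8 CPM in pif135 and 10.15, 27.0 and 18.0 in pif145, against 21.6, 44.6 and 26.9 in pifq. Letter by letter, pifq was the higher in 3 of 3 libraries each time, although the groups overlap.

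Between pifq and each triple mutant same-letter libraries deviated together in each of the 3 letters. With the letter as a block within each set, TAA1 was higher in pifq than in pif135 by 0.79 ± 0.18 (log2, adjusted p = 0.0138) and than in pif145 by 0.78 ± 0.18 (adjusted p = 0.0220). That fit called 6.49% and 2.11% of all loci in these comparisons. With a block in a fit of only the genotypes compared, the call against pif135 held and that against pif145 was lost. Both were lost with the replicate block over all libraries, which called 0 of these genes in the 4 comparisons. Without a block, the values were 0.79 ± 0.32 (adjusted p = 0.282) and 0.76 ± 0.33 (adjusted p = 0.535). Against pif345 the blocked value was 0.50 ± 0.18 (adjusted p = 0.0781) and against the libraries labelled pif134 it was 0.02 ± 0.18 (adjusted p = 0.980), with 10.4% and 3.35% of all loci called. So TAA1 levels in pifq and in the libraries labelled pif134 were above those in pif135 and pif145 within every letter. The letter B library was the highest of its genotype in all 5.

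Among the 4 triple mutants, 0 genes passed edgeR's test without a block (0 at an unadjusted p under 0.05, DESeq2 0; 8.84% of loci called). With the block within each set, TAA1 (adjusted p = 0.00618) and YUC8 (adjusted p = 0.0485) differed, with 24.2% of loci called. A blocked fit of only the genotypes compared called TAA1 alone, and the replicate block over all libraries called 0 genes. YUC8 ran from 3.51 ± 1.94 CPM in pif345 to 7.68 ± 1.31 in pif135 (SD, n = 3). Among the 4 single mutants, TAR2 had the lowest p (0.00685, adjusted p = 0.0977; 0 genes called, DESeq2 called TAR2, 4.49% of loci called). With the block its adjusted p was 0.00701, with 19.3% of loci called. Over all 10 genotypes 0 genes passed without a block (TAR2 alone had an unadjusted p under 0.05, DESeq2 called TAR2, 26.7% of loci called). With the block within each set TAA1 (adjusted p = 0.00233) and TAR2 (0.00697) passed edgeR's test, beside 58.4% of loci. That test also compares genotypes across the sets, where this block pairs no letters and set and genotype cannot be told apart. Without pif5 A, TAR2 was called without a block both over the single mutants and over all genotypes.

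Whether the loss of a PIF has a like effect in WT and in the background lacking the other 3 was tested as an interaction for PIF1, PIF3 and PIF4. Of 15 tests, 0 passed edgeR's test without the block (0 had an unadjusted p under 0.05, and DESeq2 called 0), where 0.653%, 0.219% and 0.525% of all loci were called. With the block 0 passed as well, although 2, both of TAA1, had an unadjusted p under 0.05, and 13.4%, 0.798% and 7.01% of all loci were called. TAA1 had the lowest adjusted p in both fits, for PIF1: -0.75 ± 0.46 (log2, effect of pif1 in WT minus its effect in pif345; adjusted p = 0.438) and with the block -0.69 ± 0.26 (adjusted p = 0.0758).

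The replicate letter went with these genes more than genotype did for 4 of the 5. The letters within each set took 54.3% of the spread of log2 CPM for YUC6, 52.7% for YUC8, 49.6% for YUC3 and 47.9% for TAA1. Genotype took 24.9%, 24.3%, 21.0% and 39.1%. For TAR2 it was 32.7% by letter and 47.2% by genotype, and the medians over all tested loci were 27.0% and 43.8%. YUC6 was lowest in the B library of 10 of 10 genotypes. YUC8 was lowest in B in 5 of 5 genotypes of the WT and single mutant set, at 2.20 to 3.19 CPM in B against 4.88 to 13.4 in A. In the set of triple mutants and pifq YUC8 was lowest in B in 1 of 5 and TAA1 highest in B in 5 of 5, with a median ratio of B to A of 2.03.

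Some markers of other tissues also differed between the letters. In WT and single mutants the summed level of 5 vascular markers was 45.9 to 81.2 CPM in A, 23.5 to 41.7 in B and 31.4 to 52.2 in C. In the triple mutants and pifq it was 37.5 to 53.1 in A, 51.4 to 71.0 in B and 30.5 to 57.3 in C. The sum of 4 shoot meristem markers in WT and single mutants was 42.7 to 55.7 CPM in A, 20.6 to 43.0 in B and 23.5 to 28.0 in C. In the triple mutants and pifq it was 23.1 to 41.9 in A, 32.4 to 59.5 in B and 21.8 to 32.4 in C. Between letters of WT and single mutants, these ranges were apart only for A and B (vascular) and for A and C (shoot meristem). In the triple mutants and pifq all these ranges overlapped. The sum of the root meristem markers overlapped between all letters in both sets (37.6 to 48.0 in A, 31.8 to 42.5 in B and 31.3 to 44.1 in C of WT and single mutants). Those of the root cap, stomatal, root hair and seed storage markers did so too. Root hair medians in WT and single mutants were 50.9 CPM in A, 30.1 in B and 31.6 in C. The part of these markers in the levels of TAA1 and the YUCCA genes was not tested.

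**Figure D3:**
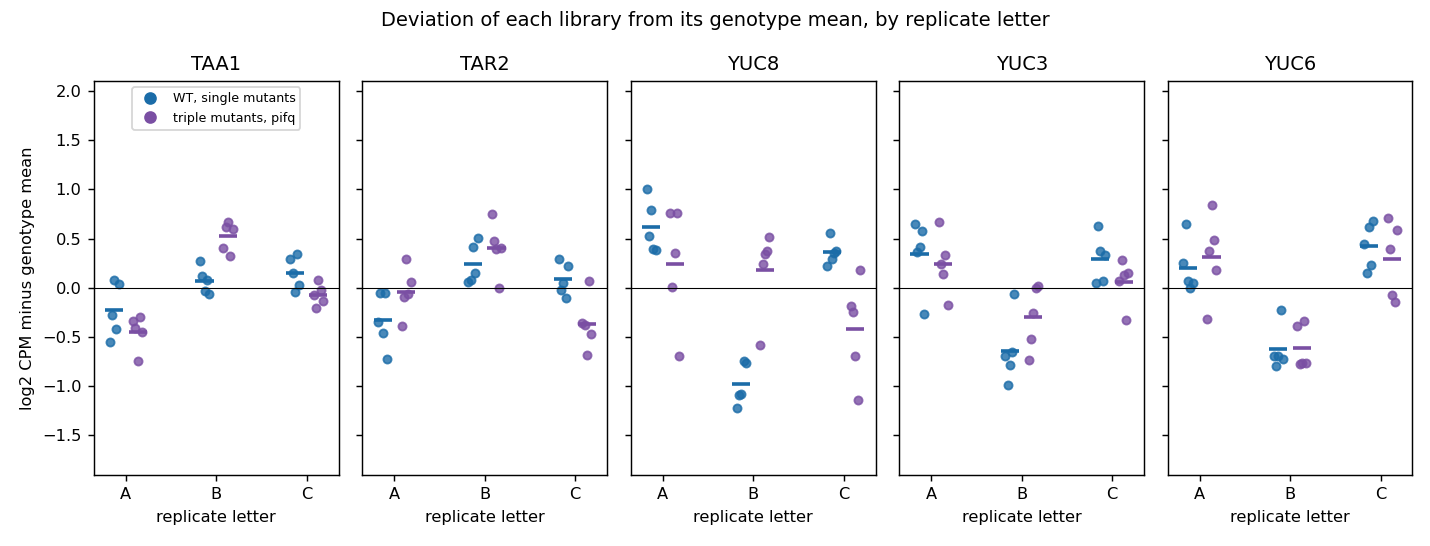
Deviation of each library's log2 CPM from the mean of its genotype, by replicate letter, for the 5 tested genes; short bars are the means of the 5 genotypes in a set and colours mark the set. YUC8 is lowest in B in WT and single mutants but not in the other set, and YUC6 is lowest in B in both.

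YUC8 and YUC3 together made up most YUCCA reads, and their balance varied. YUC8 held 19.4% to 71.6% of the reads of the 7 YUCCA genes (median 46.6%), YUC3 20.4% to 56.2% and YUC6 4.63% to 21.3%. YUC1, YUC2, YUC5 and YUC9 together held at most 5.47%. The YUC8 share was 46.4% to 64.2% in WT (mean 55.7% ± 8.95, SD, n = 3) and 19.4% to 38.0% in pif345 (31.7% ± 10.6), so those groups did not overlap. A two-sided exact permutation test gave p = 0.1, the smallest that 3 against 3 libraries allow, and 0.3 after adjustment over the 9 mutants. In pif135 the share was 58.5% ± 11.8, and in pifq 43.0% ± 10.08. Summed over the 7 genes, YUCCA transcripts were 5.88 to 20.9 CPM, and TAA1 and TAR2 together were 14.4 to 50.8 CPM, with TAA1 as 70.4% to 92.0% of that pair.

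**Figure D4:**
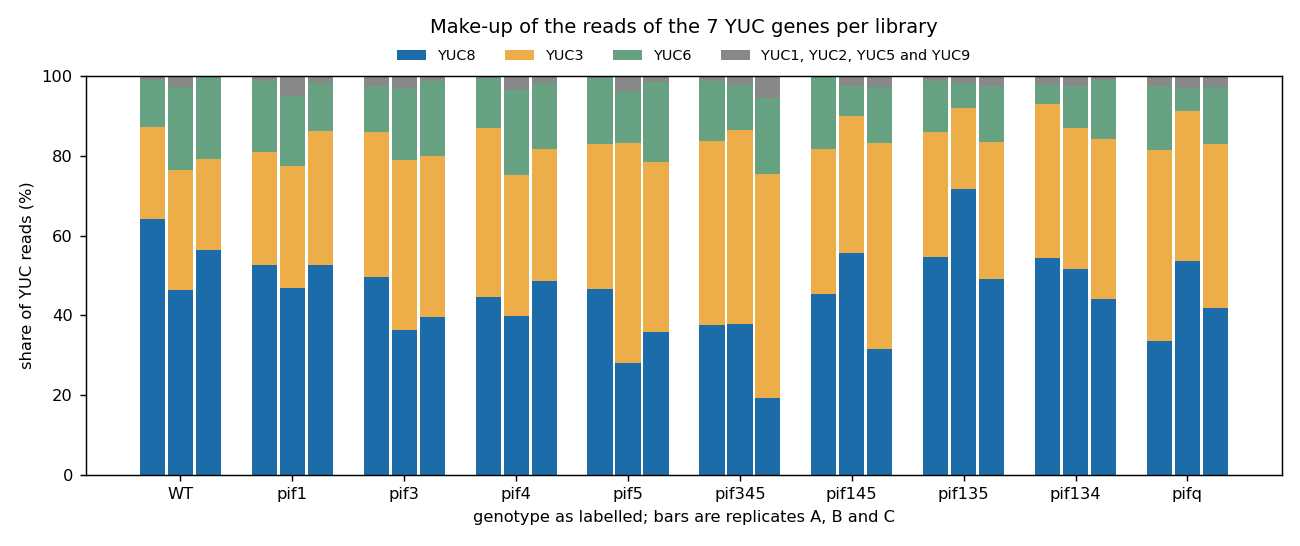
Share of the reads of the 7 YUCCA genes taken by YUC8, YUC3, YUC6 and the 4 low genes together, as stacked bars for replicates A, B and C of each genotype. YUC8 is 46.4% to 64.2% in WT and 19.4% to 38.0% in pif345.

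Relatives of these genes added little to the transcript pool, with a single exception. YUC10 and YUC11 gave 0 reads in all 30 libraries. TAR1 gave 8 reads, and all 8 were in the libraries labelled pif134. The exception was AT1G34040, a relative of TAA1, which was 2.48 ± 0.73 CPM in WT, 4.65 ± 0.44 in pif1 and 0.981 ± 0.607 in pifq (SD, n = 3). It fell by 1.34 ± 0.46 (log2) in pifq, with an edgeR adjusted p of 0.0491, and lost that call in 14 of the 30 fits that left out a library. Its relative AT1G34060 had 6 to 44 reads a genotype and was not called in pifq. YUC4 had 8 to 21 reads a genotype and YUC7 0 to 7, too few to test.

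While TAA1 and the YUCCA genes passed no test in pifq without a block, genes that supply their substrate did. Of 79 other auxin pathway genes, 69 were tested and 22 were called in pifq against WT, 15 higher and 7 lower (31.9% of those tested, against 15.2% of all loci), with a median log2 fold change of 0.19 against -0.01 over all loci. The lists were chosen with earlier results of these data known, so these shares are a description and not a test of the pathway. Of 11 genes of tryptophan synthesis, 6 rose and 0 fell in pifq, with a median log2 fold change of 1.34. Of all loci, 8.01% were called higher and 7.17% lower there. ASA1, the catalytic subunit of anthranilate synthase, was 21.6, 18.2 and 16.8 CPM in WT and 125, 83.0 and 100.4 in pifq, with no overlap. It rose by 2.45 ± 0.44 (adjusted p = 2.81e-04). ASB1, which encodes the other subunit, rose by 2.61 ± 0.56 and TSA1, the tryptophan synthase alpha subunit, by 2.34 ± 0.45, and the other 3 were TSB1, TSB2 and AT2G04400. TSB1 and TSB2 are close copies, as are some relatives of ASB1, and may share reads.

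Among the triple mutants, 5 of the 11 tryptophan genes rose in pif345 and 7 in the libraries labelled pif134, where 2.42% and 9.12% of all loci were called higher and 1.48% and 7.79% lower. ASA1 was 90.1, 143 and 65.0 CPM in pif345 and 213, 197 and 177 in the libraries labelled pif134, above WT in every library. In pif145, ASA1, ASB1 and TSA1 rose (3 of 11, beside 6.53% of all loci higher and 5.52% lower). In pif135 PAI3 alone rose (1 of 11, beside 6.79% and 5.77%), a count near the share of all loci called higher. ASA1 was 44.6, 49.1 and 123 CPM in pif145 and 87.9, 22.9 and 16.2 in pif135. It was highest in pif145 C and pif135 A, the libraries in which PIF1 was also highest for their genotype, and the part of that in the result was not tested. Without pif145 C, 0 of the 11 genes were called in pif145, and without pif135 A, 0 were called in pif135. In each single mutant 0 of 11 were called by edgeR, with 0 to 2 at an unadjusted p under 0.05.

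The parallel route through indole-3-acetaldoxime also leads to indole glucosinolates. The list for it also held nitrile and amide genes and aminotransferases. In pifq, 4 of its 10 genes were higher and 0 lower (median log2 fold change 0.93), beside 8.01% and 7.17% of all loci. Being on the list does not show that an enzyme takes part in auxin synthesis. CYP79B2, the cytochrome P450 that makes the oxime, was 24.2, 16.2 and 18.4 CPM in WT and 205, 65.3 and 116 in pifq, a rise of 2.71 ± 0.70 (adjusted p = 0.00834). The nitrilase NIT4 rose by 4.13 ± 0.86, from 0.534, 0.749 and 1.31 CPM to 17.1, 12.8 and 16.0, and NIT2 rose by 2.09 ± 0.49. The NIT1, NIT2 and NIT3 copies, like CYP79B2 and CYP79B3, may share reads. The list had 2 genes called higher in pif345, 2 in pif145, 1 in pif135 and 6 in the libraries labelled pif134. Of all loci, 2.42%, 6.53%, 6.79% and 9.12% were called higher there. The count in pif135 is near that share. In pif145 NIT4 was 4.19, 6.06 and 64.5 CPM, again highest in C, and in pif135 13.5, 1.83 and 1.58, highest in A. Without pif135 A, 0 genes of the list were called higher in pif135.

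**Figure D5:**
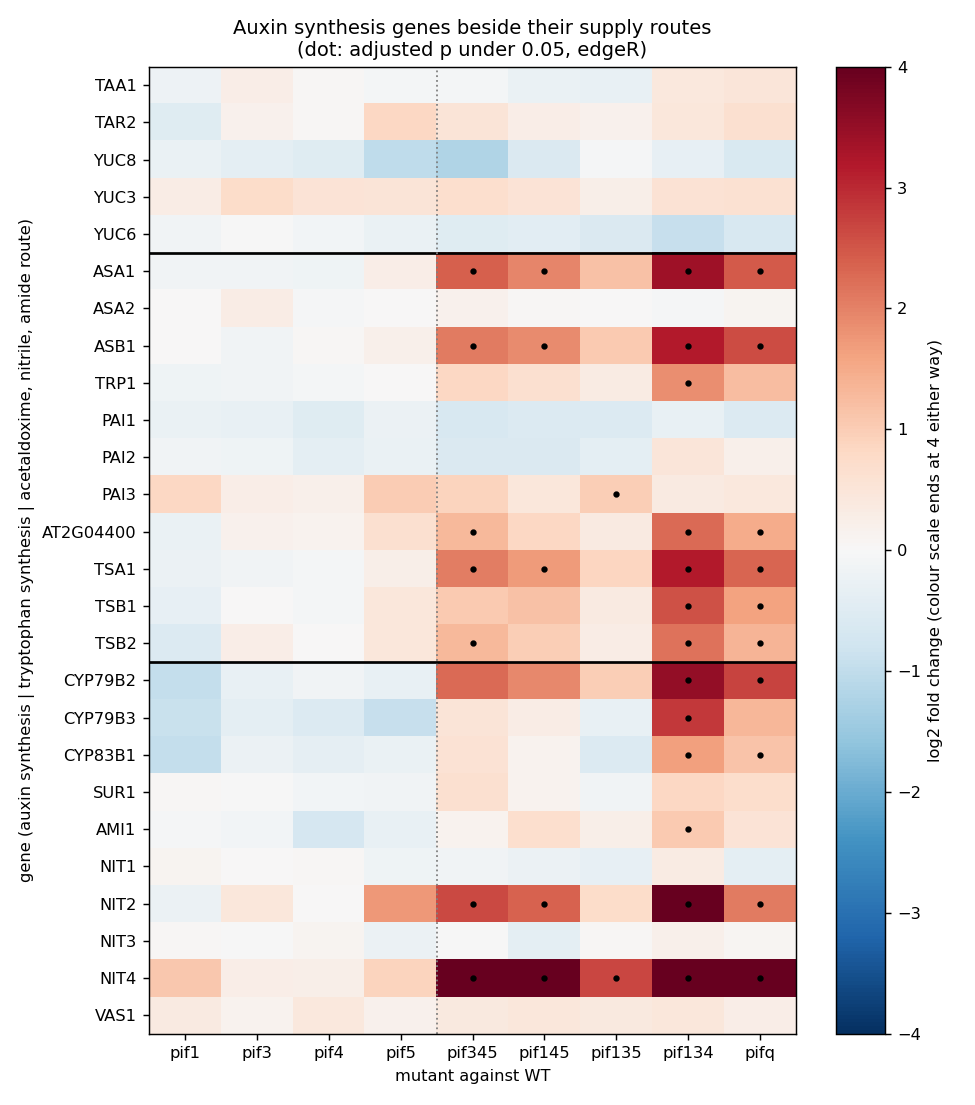
Log2 fold change against WT of the 5 tested synthesis genes, the 11 tryptophan genes and the 10 genes of the list of the acetaldoxime, nitrile and amide route and aminotransferases in 9 mutants, on a colour scale ending at 4 either way, with a dot where edgeR's adjusted p is under 0.05. TAA1 to YUC6 have no dot, while 6 tryptophan genes have one in pifq.

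Among genes acting after auxin is made, calls went in both directions in pifq, where 8.01% of all loci were called higher and 7.17% lower. Of 8 tested Aux/IAA genes, which encode auxin-induced repressors, 3 fell and 0 rose. IAA29 fell by 2.57 ± 0.46, IAA19 fell by 1.63 ± 0.29 and IAA3 fell by 1.22 ± 0.36. IAA3 lost its call without WT A (adjusted p = 0.187), pifq A (0.0667) or pifq B (0.0864). IAA29 was 28.0, 12.6 and 13.3 CPM in WT and 3.099, 3.16 and 2.80 in pifq. In pif135, 2 of the 8 rose and 0 fell, beside 6.79% and 5.77% of all loci. In the other triple mutants 0 rose, while 1 fell in pif345, 2 in pif145 and 2 in the libraries labelled pif134. Of all loci, 1.48%, 5.52% and 7.79% were called lower there. Of 18 tested genes of auxin conjugation and breakdown, 3 rose and 2 fell in pifq, with a median of -0.04. GH3.1, an enzyme that joins auxin to amino acids, fell by 1.90 ± 0.52 and its relative GH3.2 rose by 1.47 ± 0.39. GH3.1 lost its call without WT A (adjusted p = 0.0513) or pifq B (0.0691). UGT84B1, an auxin glucosyltransferase, had 0 reads in the WT libraries and 229 in pifq, at least 120-fold higher against a floor of 3 counts over the WT group, and GH3.9 had 0 and 53 (at least 27.8-fold higher). IAMT1, a methyltransferase, fell by 0.93 ± 0.25.

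Of 12 auxin transporters, 1 rose and 1 fell in pifq, close to the 8.01% and 7.17% of all loci. The influx carrier LAX1 rose by 1.20 ± 0.25 and the root efflux carrier PIN2 fell by 1.00 ± 0.34 (adjusted p = 0.0465), a call lost in 13 of the 30 fits that left out a library. PIN2 fell beside the root hair markers given above, while the root meristem markers had 0 of 4 called, and their part in the fall was not tested. Of 8 tested regulators described for TAA1 or YUCCA genes, PIF7 alone was called, higher by 5.06 ± 0.55 in pifq. It was higher in each multiple mutant too, by 2.79 to 5.29.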

How the data were processed

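Per the labels' protocols, the authors made directional 3′-capture libraries from 20 µg of total RNA. Per the submitters' processing notes, Bowtie 0.12.7 and the build TAIR10 were used, and edgeR is named without a version. The counting program is not given in the sources used here. What the authors deposited is a count of reads per locus, not normalized, in 1 column a replicate although the labels mention technical duplicate runs. An unnamed last value (at most 0.0015% of a column) was left out. That value was not whole in WT B, pif3 B and pif5 C, so the deposited values of these libraries were treated as estimated counts, but 100% of the named values were whole.

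A model of genotype alone was fitted to the 30 libraries by edgeR 4.0.16 (R 4.3.3, quasi-likelihood test, TMM factors from 0.779 to 1.20). filterByExpr with a minimum count of 10 kept 18680 loci, and a call is a Benjamini-Hochberg adjusted p under 0.05. The ± of a log2 fold change is an SE worked back from the F value. The labels call the replicates biological. The letters were taken to pair 2 genotypes where every same-letter correlation of deviations was over 0.1. That held in 10 of 10 genotype pairs among WT and single mutants and 9 of 10 among triple mutants and pifq. Between the sets it held in 1 of 25. Blocked values are therefore given inside these sets and for the pair across them, WT with the libraries labelled pif134. Blocked values of the test over all 10 genotypes and of YUC8 in pif345 against WT, which cross unpaired sets, are given as alternatives. Alternatives were RLE and total-count scaling, no filter, DESeq2 1.42.0, blocks, fewer genotypes, and each library left out. Names come from the TAIR10.1 reference by locus tag (32834 loci matched). Named were all 9 genes, their relatives, and up to 3 called genes a list with the largest change in pifq. Other called genes were named after their values were seen. Genes, lists and rules were chosen with earlier results of these data known. Floors cover counting error only, and 95% intervals of fold changes include the spread between replicates.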

Additional observations from a re-analysis of the deposited data

How the results depend on the processing

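The count of the 9 genes called was 0 in every comparison when all libraries were fitted by edgeR without a block. Over the 10 genotypes it was 2 with the replicate block or the block within each set (TAA1 and TAR2), 1 with DESeq2 (TAR2), and 0 to 1 when 1 library was left out (TAR2 without pif5 A). Against WT it was 1 with the replicate block (YUC6 in the libraries labelled pif134) and 3 with the block within each set (also TAR2 in pif5 and YUC8 in pif345), and 0 to 0 with a library left out. With the block within each set YUC6 fell by 0.89 ± 0.32 (adjusted p = 0.0326) and YUC8 by 1.06 ± 0.34 (adjusted p = 0.0348), where 6069 and 3073 loci were called. Both comparisons, like that over the 10 genotypes, cross the sets, and this block pairs no letters across them. The letters of WT pair with those of the libraries labelled pif134 but not with those of pif345. For pifq against the triple mutants it was 0 with the replicate block and 2 with the block within each set. It was 1 with only the genotypes compared and a block (TAA1 against pif135), a setting chosen after seeing the data. For the triple mutants it was likewise 0, 2 and 1 (TAA1). For the single mutants it was 1 with the replicate block, the block within each set, DESeq2, and only the genotypes compared with a block (TAR2 each time), and 0 to 1 with a library left out (pif5 A).

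RLE and total-count scaling and no filter gave 0 in all these comparisons. Leaving out the libraries labelled pif134 (also chosen after seeing the data) was run on the counts for the single mutants and the interactions and gave 0 in both. Of the values of single genes under these alternatives, 3654 kept their side of the threshold, 21 moved past it and none of a called gene changed sign. The 22 pathway calls ranged from 17 to 22 with a library left out. GH3.1 lost its call in 2 alternatives, IAA3 in 4, PIN2 in 13 and AT1G34040 in 17 of 39. Scaling by total counts moved the median log2 fold change of all loci by up to 0.19 against WT (pif5). Against WT the SEs of 0.32 to 0.55 without a block limit what can be seen. The block within each set changed no other call of these genes. Its construction takes deviations shared by a letter out of the error.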
